A study of Mus musculus with 3 samples.

Results

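Transcripts of 10 genes were followed in splenic donor T cells after allogeneic bone marrow transplantation (allo-BMT) and cyclosporine (CSA), a calcineurin inhibitor. The genes were the transcription factor Myc, the amino acid carriers Slc7a5, Slc3a2 and Slc1a5, the polyamine enzyme Odc1, the stress factor Atf4, and the enzymes Asns, Psat1, Phgdh and Shmt2. They were taken as a list of names, with earlier results of these data known, and are 10 of the 18029 genes counted. Each had UMIs (unique molecular identifiers, 1 per captured transcript) in every pool of both lineages, and all 10 passed the filter on low counts in CD4+ and in CD8+ T cells.

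B6D2F1 recipients were given B6 bone marrow with B6 T cells and a small number of TEa TCR transgenic T cells, and then saline or CSA from day 0 to day 6, the latter at a dose of 5 mg/kg in 1 group and of 50 mg/kg in another. Every group thus carried the same graft, and saline was the only control. Spleens were taken on day 7 from 6 mice per group and combined in pairs into 3 pools. CD4+ and CD8+ T cells were sorted and mixed in equal parts within a group, and each group was run as 1 capture, so that the treatment and the capture cannot be told apart. The ages of the mice were not given in the sources used here. A pool of 2 mice was the replicate throughout (n = 3 pools per group), and TEa cells were left out unless named.

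As background, activated T cells import amino acids to grow. Slc7a5 and Slc3a2 are the light and heavy chains of the carrier LAT1, which brings in leucine and other large neutral amino acids, and Slc1a5 (ASCT2) carries glutamine and other small neutral amino acids. Myc drives transcription of genes for growth, Odc1 among them, the enzyme that makes putrescine at the start of polyamine synthesis. Atf4 is the transcription factor of the integrated stress response, translated when amino acids are scarce, and Asns, which makes asparagine, is among its best known targets. Phgdh and Psat1 catalyse consecutive steps from a glycolytic intermediate to serine, and mitochondrial Shmt2 passes a carbon from serine to folate. Calcineurin activates NFAT factors downstream of the T cell receptor, and CSA blocks that step.

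The sequence shown is the promoter of Asns, because it alone among the members' promoters held the letters that Atf4 is known to bind. RefSeq promoters of 250 bases before to 50 after the start site (GRCm38.p6) were listed for 7 of the 10 members, as 8 promoters. The E-box CACGTG, read by Myc with Max, was searched on both strands and was found in 0 of these 8 and in 7.15% of all 32851 promoters. TGATGNAA, the amino acid response element, was in 1 of the 8 and in 3.97% of all. The match lay in the Asns promoter at chr6:7693160-7693459 (minus strand), starting 23 bases before the start site (-23), and is in capitals.
Asns: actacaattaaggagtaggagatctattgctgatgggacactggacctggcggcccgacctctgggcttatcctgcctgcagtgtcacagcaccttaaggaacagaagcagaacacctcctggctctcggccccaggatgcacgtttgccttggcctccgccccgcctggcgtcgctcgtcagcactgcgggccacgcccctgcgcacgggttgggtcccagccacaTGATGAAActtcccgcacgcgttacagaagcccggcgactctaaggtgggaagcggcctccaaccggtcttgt
A match is a description of letters only, and binding was not measured. Myc, Slc7a5 and Slc1a5 were not listed. In GRCm38, Myc lies on chromosome 15 from 61985391 to 61990374, Slc7a5 on chromosome 8 from 121881150 to 121907694, Phgdh on chromosome 3 from 98313170 to 98339990 and Psat1 on chromosome 19 from 15904678 to 15947337.

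The tables held 21204 cells, 10371 CD4+ and 10833 CD8+, of which 280 were TEa, and 218 of 20986 distinct barcodes occurred in more than 1 capture. Sums per pool and lineage ranged from 3994968 to 11454636 UMIs. Depth per cell rose with dose, with medians of 3097 (saline), 4396 (5 mg/kg) and 5979.5 UMIs (50 mg/kg) in CD4+ cells, and of 4108, 6121.5 and 7183 in CD8+ cells. The values below therefore use 3 scales: counts scaled by TMM (called CPM, a scaling that sets the typical gene at no change), CPM of the plain library total, and UMIs per 1000 cells. With the plain total, the median gene moved by -0.37 and -0.45 on the log2 scale at 5 and 50 mg/kg in CD4+ cells, and by -0.43 and -0.53 in CD8+ cells. Directions below are thus relative to the median gene. Cd4 was 0 in every CD8+ pool and Cd8a in every CD4+ pool, but the other markers of the opposite lineage were not. An exact 0 can result from assigning cells to lineages by these counts, so it is no measure of purity. How cells were assigned was not tested. Cd8b1 was at 20.8 to 153 CPM in CD4+ pools, and Zbtb7b at 3.47 to 20.7 and Cd40lg at 0.577 to 8.79 CPM in CD8+ pools. Summed, the CD8 markers in CD4+ pools were lower with dose (141 to 153 CPM in saline, 86.3 to 95.7 and 20.8 to 25.8 with CSA), as were the CD4 markers in CD8+ pools (23.2 to 27.8, 15.1 to 23.9 and 4.07 to 5.31). The sum of 8 B cell markers went from 199 to 213 CPM in saline to 282 to 334 at 50 mg/kg in CD4+ pools and from 189 to 212 to 570 to 743 in CD8+ pools, where 1 of the 8 was at 0 throughout. That of 6 erythroid markers went from 3.21 to 14.8 CPM to 27.7 to 37.0 in CD4+ pools and from 4.15 to 17.9 to 24.6 to 48.7 in CD8+ pools. The part of these transcripts in the results was not tested.

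At 5 mg/kg in CD4+ cells, 3 members passed the test as higher (Phgdh, Slc1a5 and Atf4) and 2 as lower (Slc7a5 and Odc1), where 51.7% of all tested genes passed in either direction. At 50 mg/kg in CD4+ cells, 6 were higher (Phgdh, Atf4, Psat1, Myc, Slc1a5 and Slc3a2) and 2 lower (Slc7a5 and Odc1), against 70.5% of all genes. In CD8+ cells, 2 were higher (Phgdh and Atf4) and 1 lower (Slc7a5) at 5 mg/kg, against 60.2%. At 50 mg/kg, 4 were higher in CD8+ cells (Atf4, Myc, Phgdh and Slc1a5) and 2 lower (Slc7a5 and Odc1), against 74% of all genes. The members called were thus 5 and 8 of the 10 at the lower and the higher dose in CD4+ cells, near the shares of all genes, and 3 and 6 of the 10 in CD8+ cells, below those shares. Among the members, Slc7a5 had the largest fall in all of them, and the median member changed by 0.17 in CD4+ and 0.08 in CD8+ cells at 50 mg/kg, on the log2 scale, where the median of all genes was -0.01 and 9.7e-04. Calls are from the quasi-likelihood test of edgeR, adjusted over all genes (Benjamini-Hochberg), at 0.05.

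**Figure D1:**
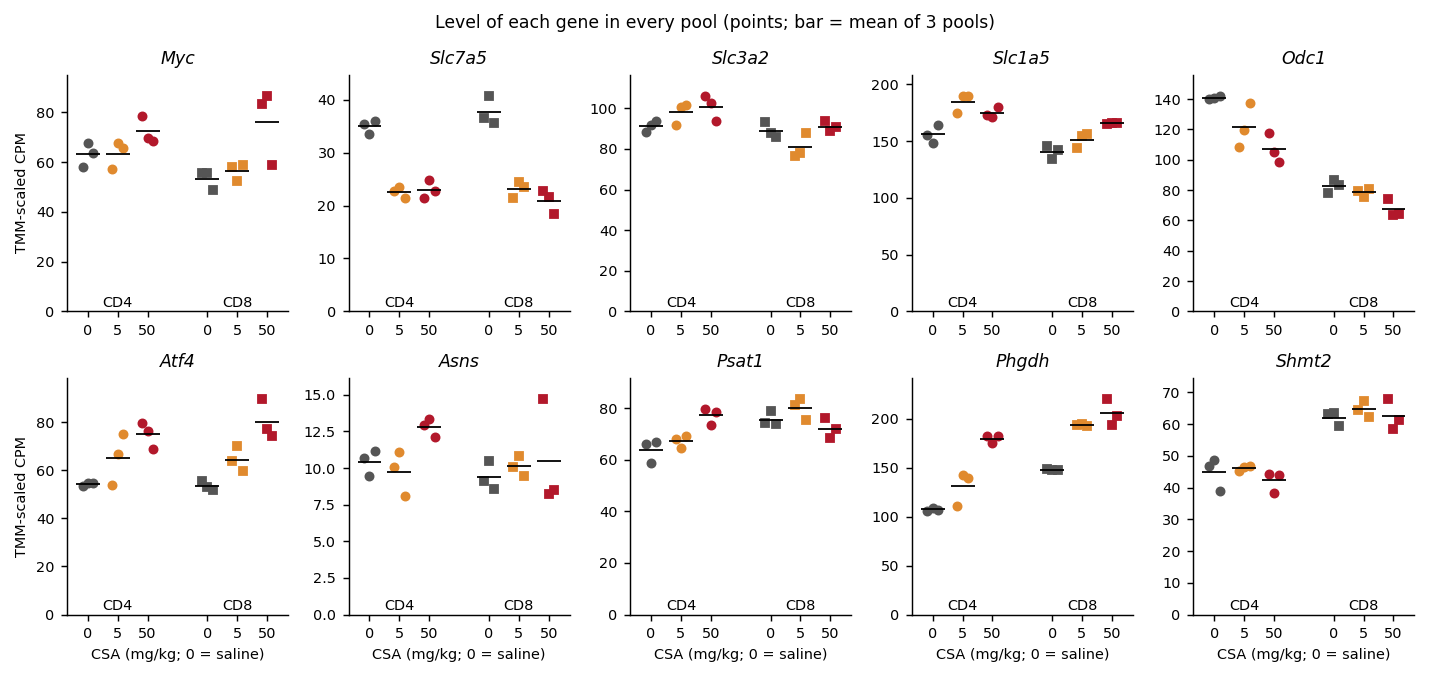
CPM (TMM scaled, linear axis from 0) of the 10 genes in each of the 9 pools, with CD4+ and CD8+ cells shown separately; points are pools and the horizontal bars are group means (n = 3). Slc7a5 is lower in every CSA pool than in every saline pool of both lineages, and Phgdh at 50 mg/kg lies above every saline pool.

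Slc7a5, the chain of LAT1 that forms the channel for the amino acid, fell in both lineages and at both doses. In CD4+ cells it was at 35.4, 33.5 and 36.0 CPM in the saline pools, 22.7, 23.5 and 21.4 at 5 mg/kg and 21.4, 24.9 and 22.8 at 50 mg/kg. In CD8+ cells the values were 36.6, 40.7 and 35.6 CPM in the saline pools, 21.4, 24.4 and 23.6 at 5 mg/kg and 22.7, 21.6 and 18.5 at 50 mg/kg. No CSA pool reached the lowest saline pool of its lineage, and the doses overlapped. The change in CD4+ cells was -0.64 ± 0.09 (SE), adjusted p = 8.90e-06 at 5 mg/kg and -0.60 ± 0.09 (SE), adjusted p = 3.91e-06 at 50 mg/kg. In CD8+ cells it was -0.69 ± 0.10 (SE), adjusted p = 6.77e-06 and -0.86 ± 0.09 (SE), adjusted p = 1.57e-07. Both falls stood with plain totals (-1.04 and -1.39 at 50 mg/kg), with any 1 pool left out, and in cells of 4000 to 8000 UMIs (-1.10 and -1.15). In CD4+ cells that window lies above the saline median of 3097 UMIs but spans the median at 50 mg/kg (5979.5). Here and below it thus keeps unlike parts of the groups and does not compare like cells. Per 1000 cells, CD4+ cells held 149, 153 and 163 UMIs in the saline pools, 101, 111 and 105 at 5 mg/kg and 126, 148 and 144 at 50 mg/kg, so that those at 50 mg/kg lay just below saline. CD8+ cells held 211, 251 and 213 UMIs in the saline pools, 126, 158 and 166 at 5 mg/kg and 147, 145 and 140.2 at 50 mg/kg. With the clusters of each pool weighted to their saline shares, the fall at 50 mg/kg was not seen in CD4+ cells (log2 0.03 (adjusted p = 0.913)) and as large in CD8+ cells (-0.85 (adjusted p = 0.00749)). The lower dose then gave -0.14 (adjusted p = 0.85) and -0.28 (adjusted p = 0.618), and outside the clusters taken as cycling the CD8+ fall at 5 mg/kg was -0.30 (adjusted p = 0.118). The weighting scales up counts of clusters that were nearly absent at 50 mg/kg. CD8+ C4 held 6 to 7 cells per pool there and CD4+ C6 held 7 to 14, so the weighted values lean on few cells.

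Its partner Slc3a2, the heavy chain that brings LAT1 and other light chains to the membrane, did not fall with it on the TMM scale. In CD4+ cells Slc3a2 was at 88.4, 91.7 and 93.6 CPM in the saline pools, 91.7, 101 and 102 at 5 mg/kg and 106, 103 and 93.9 at 50 mg/kg. Every pool at 50 mg/kg was above every saline pool, but by little, and the difference of 0.14 ± 0.06 (SE), adjusted p = 0.0386, was lost in turn without saline pool 1, saline pool 2, or pool 1 or pool 2 at 50 mg/kg (adjusted p = 0.0773 to 0.141). CD8+ pools were at 93.1, 88.1 and 85.8 CPM in the saline pools, 76.7, 78.0 and 87.9 at 5 mg/kg and 93.6, 88.8 and 90.7 at 50 mg/kg, and the 50 mg/kg and saline pools overlapped (0.03 ± 0.06 (SE), adjusted p = 0.597, 95% interval -0.08 to 0.14). With plain totals Slc3a2 was instead lower at 50 mg/kg, by -0.30 in CD4+ and -0.50 in CD8+ cells.

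Slc1a5, the glutamine carrier, was slightly higher. It was at 156, 148 and 164 CPM in the saline pools, 175, 189.6 and 189 at 5 mg/kg and 173, 171 and 179.9 at 50 mg/kg in CD4+ cells, with all CSA pools above all saline pools. CD8+ values were 146, 135 and 142 CPM in the saline pools, 143, 154 and 156 at 5 mg/kg and 165, 166 and 166 at 50 mg/kg, and here the 50 mg/kg pools alone were clear of saline. The change at 50 mg/kg was 0.16 ± 0.05 (SE), adjusted p = 0.00599 in CD4+ and 0.24 ± 0.05 (SE), adjusted p = 1.68e-04 in CD8+ cells, and with plain totals it turned to -0.27 and -0.29. Without saline pool 2, the CD4+ difference gave an adjusted p of 0.052. In cells of 4000 to 8000 UMIs it remained called as higher, at 0.17 and 0.19.

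Myc itself was higher at 50 mg/kg in both lineages on the TMM scale. In CD4+ cells it was at 58.2, 67.6 and 63.8 CPM in the saline pools, 57.1, 67.6 and 65.7 at 5 mg/kg and 78.5, 69.8 and 68.7 at 50 mg/kg. At 5 mg/kg the pools overlapped those of saline, and at 50 mg/kg all 3 lay just above the highest saline pool (0.18 ± 0.07 (SE), adjusted p = 0.0329). That call was lost without saline pool 1, saline pool 3 or pool 1 at 50 mg/kg (adjusted p = 0.0658 to 0.166) and with DESeq2 (0.20 (adjusted p = 0.0676)). In CD8+ cells the values were 55.7, 55.5 and 48.9 CPM in the saline pools, 58.2, 52.3 and 59.0 at 5 mg/kg and 83.5, 86.6 and 58.7 at 50 mg/kg. Pool 3 at 50 mg/kg was close to saline while the other two were far above, and the difference was 0.50 ± 0.11 (SE), adjusted p = 3.86e-04. At 5 mg/kg it was 0.09 ± 0.12 (SE), adjusted p = 0.549. With plain totals, Myc was lower in CD4+ cells at 50 mg/kg (-0.25 (adjusted p = 0.00476)) and near 0 in CD8+ cells (-0.03 (adjusted p = 0.834)). Per cell there was more of it, at 245, 308 and 289 UMIs in the saline pools, 253, 320.5 and 322 at 5 mg/kg and 462, 414 and 432 at 50 mg/kg per 1000 CD4+ cells, and 321, 342 and 293 UMIs in the saline pools, 341, 338 and 416 at 5 mg/kg and 539, 580.1 and 445 at 50 mg/kg per 1000 CD8+ cells, and total UMIs per cell rose as well.

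Odc1, the Myc target that opens polyamine synthesis, was lower at 50 mg/kg in both lineages. CD4+ pools were at 139.7, 140.5 and 142 CPM in the saline pools, 108, 119.8 and 138 at 5 mg/kg and 117, 105 and 98.5 at 50 mg/kg, with no CSA pool inside the narrow saline range. CD8+ pools were at 77.9, 86.4 and 83.4 CPM in the saline pools, 79.6, 75.6 and 80.9 at 5 mg/kg and 74.3, 63.9 and 64.0 at 50 mg/kg, where those of 5 mg/kg overlapped saline and those of 50 mg/kg did not. The change at 50 mg/kg was -0.40 ± 0.07 (SE), adjusted p = 3.61e-05 in CD4+ and -0.30 ± 0.06 (SE), adjusted p = 3.64e-04 in CD8+ cells, and -0.84 and -0.83 with plain totals. In CD4+ cells at 5 mg/kg it was -0.20 ± 0.07 (SE), adjusted p = 0.0259, a call lost without saline pool 2 or 3 or pool 1 or 2 at 5 mg/kg (adjusted p = 0.057 to 0.175). Counted per 1000 cells, the groups overlapped, with 588, 640.3 and 644 UMIs in the saline pools, 479, 568 and 675 at 5 mg/kg and 689, 625 and 619 at 50 mg/kg in CD4+ cells. With clusters weighted to their saline shares, Odc1 at 50 mg/kg was -0.15 (adjusted p = 0.309) in CD4+ and -0.58 (adjusted p = 0.0221) in CD8+ cells. These weighted values too lean on clusters with few cells at that dose.

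Atf4 transcripts rose with dose relative to the median gene. In CD4+ cells Atf4 was at 53.4, 54.7 and 54.5 CPM in the saline pools, 53.7, 66.9 and 74.8 at 5 mg/kg and 79.7, 76.4 and 68.8 at 50 mg/kg, and in CD8+ cells at 55.6, 53.0 and 51.8 CPM in the saline pools, 63.9, 69.8 and 59.5 at 5 mg/kg and 89.5, 77.0 and 74.1 at 50 mg/kg. All pools at 50 mg/kg were above all saline pools of the lineage, and in CD8+ cells this held at 5 mg/kg too. The rise at 50 mg/kg was 0.46 ± 0.09 (SE), adjusted p = 6.95e-05 in CD4+ and 0.58 ± 0.07 (SE), adjusted p = 9.16e-07 in CD8+ cells. At 5 mg/kg it was 0.28 ± 0.09 (SE), adjusted p = 0.0139 and 0.26 ± 0.08 (SE), adjusted p = 0.00711, and these calls were lost without pool 3 at 5 mg/kg in CD4+ cells (adjusted p = 0.184) and without pool 2 at 5 mg/kg in CD8+ cells (adjusted p = 0.0583). With plain totals no rise was seen at 50 mg/kg (log2 0.03 (adjusted p = 0.801) and 0.05 (adjusted p = 0.535)), while in cells of 4000 to 8000 UMIs it was 0.48 and 0.61. Atf4 is controlled largely at translation, which these transcript counts do not measure.

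Asns, the asparagine synthetase whose promoter is shown above, was the most sparsely counted member, at 39 to 106 UMIs per pool. CD4+ pools were at 10.7, 9.49 and 11.1 CPM in the saline pools, 10.1, 11.1 and 8.08 at 5 mg/kg and 12.9, 13.4 and 12.1 at 50 mg/kg, and those at 50 mg/kg were above saline by 0.29 ± 0.14 (SE), adjusted p = 0.0766 (95% interval 0.01 to 0.58), short of the threshold. In CD8+ cells the values were 9.15, 10.5 and 8.54 CPM in the saline pools, 10.1, 10.9 and 9.43 at 5 mg/kg and 14.7, 8.23 and 8.48 at 50 mg/kg. Pool 1 at 50 mg/kg was the highest and the other pools of that dose the lowest, with a difference from saline of 0.13 ± 0.18 (SE), adjusted p = 0.516 (95% interval -0.22 to 0.49). A change was not detected in CD8+ cells, where the pools at 50 mg/kg differed widely.

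Phgdh, which takes 3-phosphoglycerate out of glycolysis into serine synthesis, had the largest rise of the 10 in CD4+ cells. There it was at 106, 109 and 107 CPM in the saline pools, 111, 142 and 139.8 at 5 mg/kg and 182, 175 and 182 at 50 mg/kg. The saline pools lay within a few CPM of each other, pool 1 at 5 mg/kg was just above them, and the 50 mg/kg pools were far higher. In CD8+ cells Phgdh was at 149, 148 and 147 CPM in the saline pools, 194, 195 and 192 at 5 mg/kg and 219.8, 194 and 203 at 50 mg/kg, with both doses clear of saline and overlapping each other. The changes at 5 and 50 mg/kg were 0.30 ± 0.07 (SE), adjusted p = 0.00102 and 0.74 ± 0.06 (SE), adjusted p = 1.37e-09 in CD4+ cells, and 0.38 ± 0.05 (SE), adjusted p = 1.84e-06 and 0.47 ± 0.05 (SE), adjusted p = 4.62e-08 in CD8+ cells. No left-out pool ended these calls. With plain totals the rise at 50 mg/kg was 0.30 (adjusted p = 1.95e-04) in CD4+ cells and was not seen in CD8+ cells (-0.06 (adjusted p = 0.253)). In cells of 4000 to 8000 UMIs it was 0.13 (adjusted p = 0.169) and 0.02 (adjusted p = 0.843), and at 5 mg/kg Phgdh was lower there in CD4+ cells (-0.29 (adjusted p = 0.00736)). Per 1000 cells there were 446, 498 and 485 UMIs in the saline pools, 493, 675 and 686 at 5 mg/kg and 1069.8, 1039 and 1144 at 50 mg/kg in CD4+ cells, and 859, 911 and 883 UMIs in the saline pools, 1134, 1256 and 1353 at 5 mg/kg and 1419, 1299.8 and 1538 at 50 mg/kg in CD8+ cells.

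Psat1, the aminotransferase of the next step, did not follow Phgdh in both lineages. It rose in CD4+ cells at 50 mg/kg, with 66.2, 58.9 and 66.7 CPM in the saline pools, 68.2, 64.6 and 69.0 at 5 mg/kg and 79.7, 73.4 and 78.4 at 50 mg/kg (0.28 ± 0.07 (SE), adjusted p = 7.91e-04). In CD8+ cells, with 74.0, 78.7 and 73.8 CPM in the saline pools, 81.1, 83.4 and 75.2 at 5 mg/kg and 76.1, 68.4 and 71.7 at 50 mg/kg, the groups overlapped (-0.07 ± 0.06 (SE), adjusted p = 0.284). The CD4+ rise depended on which cells and which scale were used, being -0.16 with plain totals, 0.08 (adjusted p = 0.493) outside the clusters taken as cycling, and -0.63 (adjusted p = 8.80e-06) in cells of 4000 to 8000 UMIs. Shmt2, the mitochondrial serine hydroxymethyltransferase, was at 46.9, 48.8 and 38.8 CPM in the saline pools, 45.2, 46.3 and 46.7 at 5 mg/kg and 44.4, 38.2 and 44.0 at 50 mg/kg in CD4+ cells and 63.1, 63.6 and 59.5 CPM in the saline pools, 64.6, 67.3 and 62.3 at 5 mg/kg and 67.8, 58.4 and 61.4 at 50 mg/kg in CD8+ cells. Its groups overlapped in both, with 95% intervals at 50 mg/kg of -0.25 to 0.09 and -0.11 to 0.13 on the log2 scale. In cells of 4000 to 8000 UMIs, Shmt2 was lower at 50 mg/kg, by -0.63 (adjusted p = 2.21e-04) and -0.43 (adjusted p = 1.34e-04).

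Per 1000 cells, most members were higher at 50 mg/kg in CD4+ cells, as were many other genes. For 56% of all tested genes, every CD4+ pool at 50 mg/kg held more UMIs per 1000 cells than every saline pool. Among the members this held for Myc (log2 ratio of means 0.63), Phgdh (1.19), Slc3a2 (0.59), Slc1a5 (0.61), Atf4 (0.91), Asns (0.74), Psat1 (0.72) and Shmt2 (0.36). In CD8+ cells it held for Myc (0.71), Phgdh (0.68), Slc3a2 (0.24), Slc1a5 (0.45) and Atf4 (0.79), against 45.2% of all genes. The CD8+ pools overlapped for Asns (0.35), Psat1 (0.14) and Shmt2 (0.22). In both lineages the pools overlapped for Odc1 (0.05 in CD4+ and -0.09 in CD8+ cells), and Slc7a5 was lower (-0.16 and -0.64).

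**Figure D2:**
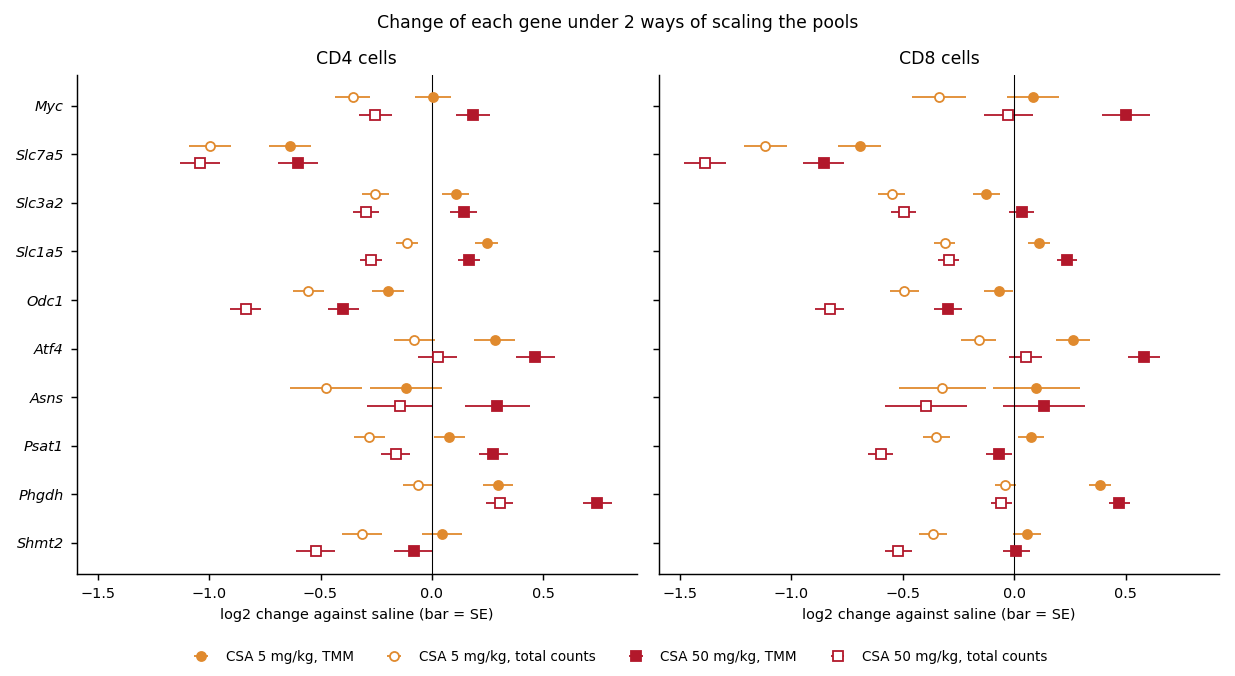
Log2 change of each gene against saline at 5 and 50 mg/kg in CD4+ and CD8+ cells, with TMM scaling (filled) and with plain library totals (open); bars are standard errors from edgeR and the line at 0 marks no change. Slc7a5 lies below 0 with both scalings in both lineages, while Myc, Slc1a5, Slc3a2 and Asns at 50 mg/kg shift from above 0 to below it in both lineages.

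Between the doses, 3 members were higher at 50 than at 5 mg/kg in CD4+ cells and 1 lower, against 41.2% of all genes called. These were Phgdh (0.45 ± 0.06 (SE), adjusted p = 1.03e-05), Asns (0.41, adjusted p = 0.0405), Psat1 (0.20, adjusted p = 0.0235) and, lower, Odc1 (-0.20, adjusted p = 0.0322). In CD8+ cells 4 were higher and 1 lower, against 41%. They were Myc (0.42 ± 0.11 (SE), adjusted p = 0.00705), Atf4 (0.32, adjusted p = 0.00258), Slc3a2 (0.16, adjusted p = 0.0429), Slc1a5 (0.12, adjusted p = 0.0445) and, lower, Odc1 (-0.23, adjusted p = 0.0109). Of these 9 calls, 5 were lost with DESeq2. They were Asns (adjusted p = 0.162), Psat1 (adjusted p = 0.0787) and Odc1 (adjusted p = 0.0974) in CD4+ cells, and Slc3a2 (adjusted p = 0.0938) and Slc1a5 (adjusted p = 0.0936) in CD8+ cells. Each of these 5, and Odc1 in CD8+ cells, was also lost without 1 or another pool, in 2 to 7 of the 9 fits, with adjusted p up to 0.333. The calls of Phgdh in CD4+ cells and of Myc and Atf4 in CD8+ cells held in all 9 fits and with DESeq2. Slc7a5 was not called between the doses, at 0.04 (95% interval -0.16 to 0.23) in CD4+ and -0.16 (-0.37 to 0.04) in CD8+ cells. The comparisons with saline at the 2 doses share the saline pools.

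Without drug, the lineages already differed. In the saline pools 4 members were higher in CD8+ than in CD4+ cells and 1 lower, against 40.1% of all genes called. Phgdh was higher by 0.55 ± 0.05 (SE), adjusted p = 5.34e-09, Shmt2 by 0.56 ± 0.06 (SE), adjusted p = 8.09e-08, Psat1 by 0.33 ± 0.06 (SE), adjusted p = 8.23e-05, and Slc7a5 by 0.20 ± 0.08 (SE), adjusted p = 0.0476. The call of Slc7a5 was lost without saline pool 1 or 2, pool 2 or 3 at 5 mg/kg or pool 2 at 50 mg/kg (adjusted p = 0.0534 to 0.494). Odc1 was lower in CD8+ cells, by -0.68 ± 0.05 (SE), adjusted p = 7.47e-11. The serine enzymes Phgdh, Psat1 and Shmt2 were thus each higher in saline CD8+ cells, while a difference in Myc (-0.17, 95% interval -0.33 to -0.01), Slc3a2 (0.04), Slc1a5 (-0.06), Atf4 (0.06) or Asns (-0.06) was not shown after adjustment over all genes.

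The test of whether CSA acted differently in the lineages called 0 members at 5 mg/kg, where 3.57% of all genes were called. At an unadjusted p under 0.05, 2 members differed, Slc1a5 and Slc3a2, and DESeq2 called 0 while giving no adjusted p for 8 of the 10. At 50 mg/kg it called 2, Psat1 and Phgdh, both with the smaller change in CD8+ cells, against 19.3%. The change in CD8+ less that in CD4+ cells was -0.38 ± 0.09 (SE), adjusted p = 0.00217, for Psat1 and -0.30 ± 0.07 (SE), adjusted p = 0.00322, for Phgdh. Both calls were lost with DESeq2 (-0.35 (adjusted p = 0.179) and -0.28 (adjusted p = 0.124)) and outside the clusters taken as cycling (-0.33 (adjusted p = 0.212) and -0.07 (adjusted p = 0.79)). After adjustment over all genes, the fall of Slc7a5 was not shown to differ (-0.29, 95% interval -0.53 to -0.04), nor was the rise of Myc (0.28, 0.06 to 0.50).

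The clusters were those of the study, made from the same counts, so levels across them are a description with no test. They are given in saline pools as CPM of the plain total (mean ± SD, n = 3 pools), for clusters with at least 10 cells in each. Myc was highest in CD4+ C7, the cluster with high Ifng, at 286 ± 80.3, then in C9 at 203 ± 121, and was lowest in C5 at 19.5 ± 12.4. C7 and C9 overlapped, as did most of the other clusters. In CD8+ cells Myc was highest in C8, at 279 ± 65.3, well clear of C7 at 111 ± 28.8 and C5 at 103 ± 18.1, which overlapped, and lowest in C3 at 33.7 ± 10.0.

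The same CD4+ C7 led for the uptake genes and Odc1. There Slc7a5 was at 116 ± 11.6, Slc3a2 at 179 ± 22.2, Slc1a5 at 369 ± 30.0 and Odc1 at 364 ± 37.3. Slc7a5 came next in the cycling C6, at 79.9 ± 6.35, where Slc3a2 was at 164 ± 15.6, within the spread of C7. In CD8+ cells, C8 held the highest means for Slc7a5 (90.7 ± 35.0), Slc3a2 (167 ± 48.4), Slc1a5 (336 ± 92.9) and Odc1 (219.9 ± 20.9), and C4 came second for each. For Slc7a5 the means of C8 and C4 (76.7 ± 3.48) did not differ beyond their spread. Slc7a5 was lowest in CD8+ C6, C7 and C1, at 6.98 ± 8.51, 9.36 ± 10.2 and 10.4 ± 2.82, which rest on few UMIs and overlap.

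The serine enzymes were high in CD4+ C7 and in the clusters taken as cycling (CD4+ C3, C5 and C6, and CD8+ C2, C3 and C4). Phgdh was highest in CD8+ C4 at 258 ± 5.81, above C2 at 204 ± 19.1. In CD4+ cells it was highest in C3, C6 and C7, at 215 ± 28.1, 214 ± 29.3 and 201 ± 29.1, which did not differ beyond their spread. Psat1 was at 138 ± 33.6, 124 ± 4.97 and 117 ± 13.1 in CD4+ C7, C6 and C3, again overlapping, and at 130.4 ± 4.89 in CD8+ C4 and 105 ± 5.94 in C2. Shmt2 was highest in CD8+ C8 (115 ± 10.3) and C4 (114 ± 8.23) and in CD4+ C7 (105 ± 21.2). For Asns, CD4+ C7 stood apart at 48.0 ± 12.5, with C6 next at 15.9 ± 4.08. Atf4 was even across CD8+ clusters, from 55.9 ± 25.0 in C7 to 74.4 ± 12.5 in C3, and ran from 29.9 ± 21.3 in C10 to 104 ± 22.4 in C8 in CD4+ cells, the former on few UMIs.

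**Figure D3:**
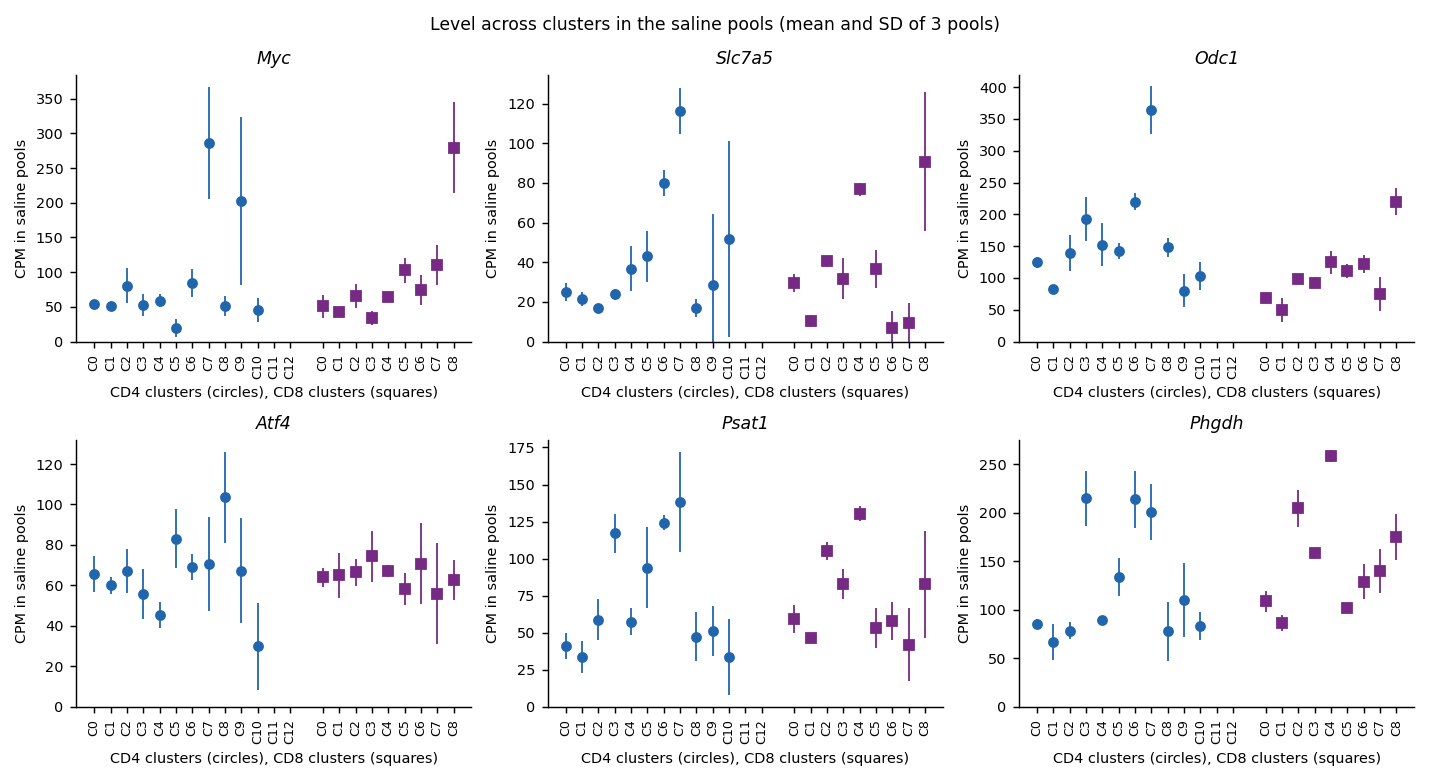
Plain CPM (linear axis from 0) of Myc, Slc7a5, Odc1, Atf4, Psat1 and Phgdh in each cluster of CD4+ (circles) and CD8+ cells (squares) in the saline pools; points are means, bars are SD (n = 3 pools), and clusters with fewer than 10 cells in a saline pool are blank. CD4+ C7 and CD8+ C8 are the highest of their lineage for Myc, Slc7a5 and Odc1, and CD8+ C4 for Phgdh and Psat1.

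Shares of these clusters moved with dose, which bears on sums over a lineage. CD8+ C4, high for Slc7a5, Psat1 and Phgdh, was 21.9% ± 1.36 of cells in saline, 3.06% ± 0.110 at the lower dose and 0.567% ± 0.0480 at the higher. CD4+ C6, also high for Slc7a5, was 10.9% ± 0.646, 6.23% ± 1.44 and 1.11% ± 0.359. CD4+ C3, high for Phgdh and not for Slc7a5, was 4.35% ± 0.943, 10.7% ± 0.579 and 17.7% ± 1.49, and C1, with the lowest mean Phgdh and Psat1, was 9.01% ± 0.726, 17.1% ± 0.219 and 25.6% ± 1.46. CD4+ C7, with the highest Myc, held 4.41% ± 0.954, 5.50% ± 0.689 and 4.83% ± 0.780 (SD, n = 3 pools for each share).

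Within clusters, 7 had at least 50 cells in every pool and could be tested at 50 mg/kg. In CD4+ C0, the effector cells with high Cd226, 4 of the 9 members tested were higher and 0 lower, against 54.8% of all genes called there. Myc rose most, by 0.94 ± 0.18 (SE), adjusted p = 1.56e-05, followed by Phgdh at 0.73 ± 0.14 (SE), adjusted p = 1.46e-05, Atf4 at 0.48 ± 0.17 (SE), adjusted p = 0.0147 and Slc3a2 at 0.35 ± 0.13 (SE), adjusted p = 0.0224. With plain totals Myc in C0 was 0.48 (adjusted p = 0.0243) and Phgdh 0.27 (adjusted p = 0.0878). The calls of Atf4 and Slc3a2 in C0 were lost with DESeq2 (adjusted p = 0.0692 and 0.0888), and Atf4 was 0.02 and Slc3a2 -0.12 with plain totals. Without 1 pool, Atf4 was lost in 2 and Slc3a2 in 5 of the 9 fits (adjusted p up to 0.139 and 0.0923). In CD4+ C1, the effector cells with low Cd226, 0 of 9 were higher and 2 lower, against 20.3%. They were Slc7a5 (-1.06 ± 0.38 (SE), adjusted p = 0.0398) and Odc1 (-0.73 ± 0.17 (SE), adjusted p = 0.00141). The call of Slc7a5 in C1 was lost with DESeq2 (adjusted p = 0.154) and without any 1 saline pool or pool 1 or 2 at 50 mg/kg (adjusted p = 0.0676 to 0.202). In CD4+ C2, 2 of 9 were higher, Slc3a2 (0.53 ± 0.18 (SE), adjusted p = 0.0333) and Slc1a5 (0.47 ± 0.15 (SE), adjusted p = 0.0177), and 1 lower, Odc1 (-0.67 ± 0.17 (SE), adjusted p = 0.00274), against 22.5%. In C2, the calls of Slc3a2 and Slc1a5 were lost with plain totals (adjusted p = 0.165 and 0.151), with DESeq2 (adjusted p = 0.165 and 0.0783) and without 1 pool (saline pool 1, and for Slc3a2 also saline pool 2 or pool 2 at 50 mg/kg, adjusted p = 0.0585 to 0.188), and that of Odc1 without pool 3 at 50 mg/kg (adjusted p = 0.0548). Slc7a5 in C0 and C2 was -0.27 and -0.28, with intervals from -0.90 to 0.36 and from -1.11 to 0.54, which include 0.

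In CD8+ C0, the counterpart with high Cd226, 3 of 9 were higher and 3 lower, against 58.4%. Atf4 (0.63 ± 0.15 (SE), adjusted p = 2.77e-04), Phgdh (0.37 ± 0.14 (SE), adjusted p = 0.0177) and Slc1a5 (0.26, adjusted p = 0.0282) were higher. Psat1 (-0.97 ± 0.21 (SE), adjusted p = 8.57e-05), Slc7a5 (-0.97 ± 0.31 (SE), adjusted p = 0.00502) and Odc1 (-0.42, adjusted p = 0.036) were lower. With DESeq2, the calls of Phgdh (adjusted p = 0.0756), Slc1a5 (adjusted p = 0.0635) and Odc1 (adjusted p = 0.168) were lost, while those of Psat1, Slc7a5 and Atf4 held. With plain totals Phgdh was -0.20, Slc1a5 -0.30 and Atf4 0.06 (adjusted p = 0.718), and the call of Phgdh also ended without saline pool 3 or pool 2 at 50 mg/kg (adjusted p = 0.115 and 0.309). Those of Slc1a5 and Odc1 each ended in 3 of the 9 fits with a pool left out. In C1, 1 of 8 was higher, Slc1a5 (0.43 ± 0.13 (SE), adjusted p = 0.0095), and 0 lower, against 26.9%, and this call was lost with plain totals (adjusted p = 0.203), DESeq2 (adjusted p = 0.0515) and without saline pool 2 or 3 (adjusted p = 0.0643 and 0.0637). In C2, 3 of 10 were higher, Phgdh (0.68 ± 0.08 (SE), adjusted p = 1.95e-07), Shmt2 (0.34 ± 0.11 (SE), adjusted p = 0.00839) and Atf4 (0.30, adjusted p = 0.0263), and 1 lower, Slc7a5 (-0.40 ± 0.15 (SE), adjusted p = 0.0266), against 54.8%. The calls of Slc7a5 and Atf4 in C2 were lost with DESeq2 (adjusted p = 0.128 and 0.0784) and in 2 and 3 of the 9 fits with a pool left out, and that of Shmt2 in 2 (adjusted p up to 0.185 over these fits). In C3, 4 of 9 were higher, Phgdh (0.69 ± 0.09 (SE), adjusted p = 1.59e-07), Atf4 (0.57 ± 0.15 (SE), adjusted p = 0.0017), Slc1a5 (0.41, adjusted p = 5.58e-04) and Slc3a2 (0.31, adjusted p = 0.0287), and 0 lower, against 58.9%. That of Slc3a2 in C3 was lost with DESeq2 (adjusted p = 0.118) and without saline pool 2 or pool 1 at 50 mg/kg (adjusted p = 0.159 and 0.0684), and Atf4 was 0.11 (adjusted p = 0.539) with plain totals. The estimate for Slc7a5 was below 0 in each of the 6 clusters where it was tested, from -1.06 to -0.27, and 3 of these falls passed the test, of which that in CD8+ C0 alone also passed with DESeq2. Myc passed in CD4+ C0 alone among the 7 clusters, and differences between clusters were not tested. At the lower dose few members were called within clusters, with 1 of 9 in CD4+ C0 (16.2% of all genes), 2 of 9 in C1 (4.09%) and 1 of 9 in C2 (5.32%). In CD8+ cells they were 0 of 9 in C0 by edgeR (16.5%, with Slc3a2 alone at an unadjusted p under 0.05), 1 of 8 in C1 (5.48%), 1 of 10 in C2 (37.5%) and 1 of 9 in C3 (36.1%).

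**Figure D4:**
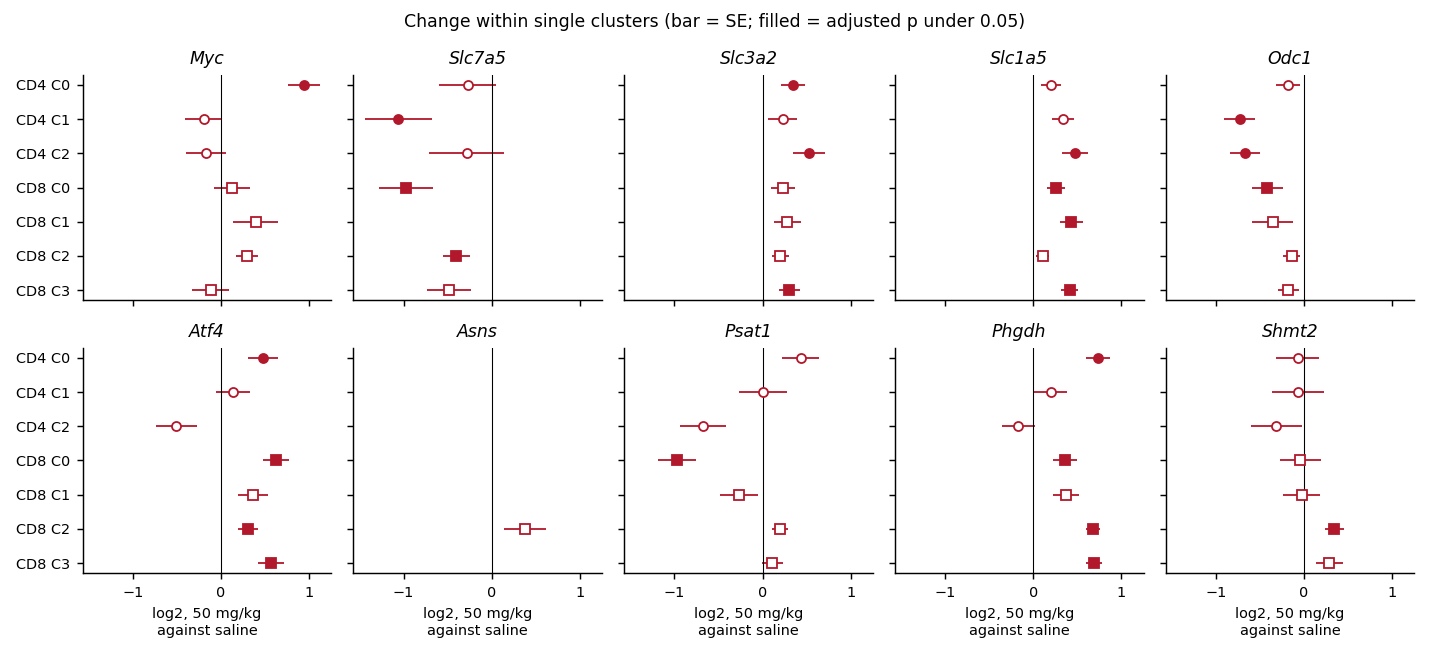
Log2 change of each gene at 50 mg/kg against saline within the 7 clusters that had at least 50 cells in every pool, with TMM scaling; circles are CD4+ and squares CD8+ clusters, bars are standard errors, and filled points passed the test (n = 3 pools per group). The Slc7a5 points all lie below 0, and the Myc point of CD4+ C0, at 0.94, is above those of the other clusters.

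Genes whose levels across clusters were most like those of Myc were Gnl3 (Pearson r = 0.90), Apex1 (0.89), Fbl (0.89), Cebpz (0.89) and Ddx18 (0.88), over 20 clusters of the saline cells and 6525 genes. For Psat1 they were Hnrnpab (0.94), U2af2 (0.94), Sdf2l1 (0.93), Srsf2 (0.93) and G3bp1 (0.92). All points come from the same saline pools of 1 capture, and depth differs among clusters, so no p is given. Among the members, Phgdh was closest to Psat1 (0.89, rank 21), and Slc3a2 to Myc (0.69, rank 94), while r between Myc and Psat1 was 0.15.

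TEa cells, CD4+ cells with 1 alloreactive TCR, were compared with the other CD4+ cells of the same pool in the 6 pools of saline and 5 mg/kg, which held 26 to 50 of them each. The test called 0 of the 10 members, against 2.03% of all genes. Before adjustment, p was under 0.05 for 1 member, Myc, and DESeq2 called 0. Myc was lower in TEa cells by -0.59 ± 0.20 (SE), adjusted p = 0.106, short of the threshold, and Slc7a5 was 0.36 (95% interval -0.10 to 0.82). Both rest on few counts, with 3 to 19 UMIs of Myc and 3 to 14 of Slc7a5 in the TEa cells of a pool.

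Other genes of these pathways were taken from lists of known members, and counts are of the genes tested at 50 mg/kg, with TMM scaling and, where the direction turned, with plain totals. Of 11 other amino acid transporters, not all of them carriers of the plasma membrane, 1 rose and 8 fell in CD4+ cells (median log2 -0.65). In CD8+ cells 2 rose and 9 fell (-0.75), beside medians over all genes of -0.01 in CD4+ and 9.7e-04 in CD8+ cells. At 5 mg/kg, 5 and 8 fell and 0 rose. Slc38a1, a glutamine carrier, was at 152 ± 9.59 CPM in saline and 94.8 ± 4.58 at 50 mg/kg in CD4+ cells (log2 -0.67) and changed by -0.72 in CD8+ cells. Slc7a1, which carries arginine and lysine, changed by -1.03 and -1.55, Slc38a2 by -0.29 and -0.75, and Slc36a1 by -1.37 and -0.75. The taurine carrier Slc6a6 passed in CD8+ cells (-0.21) and was 0.09 without a call in CD4+ cells (-0.35 with plain totals). Slc16a10, an aromatic amino acid carrier, rose in CD8+ cells (1.18) and also in CD4+ cells (1.68), there at a mean under the 5 CPM set for naming. Also outside the rule for naming, Slc43a1 was -4.73 in CD4+ and -2.02 in CD8+ cells. Slc43a2, the other gene that rose in CD8+ cells, was -0.32 and 0.29.

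Transcript length moved with these changes. Over all genes, the median log2 change at 50 mg/kg went from 0.56 in the shortest of 5 bins of exonic length to -0.59 in the longest in CD4+ cells, and from 0.67 to -0.65 in CD8+ cells, with a length for 99.2% of genes. The 10 members lay in the first 3 bins, where the medians were 0.56, 0.23 and -0.01 in CD4+ cells, and 0.67, 0.25 and -0.01 in CD8+ cells. Slc7a5, Slc1a5 and Psat1 were in the third, and 10 of the 11 other transporters were in the longest 2 bins. The part of length in the results was not tested.

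Of 19 other genes of serine and one-carbon metabolism, 8 rose and 7 fell in CD4+ cells, and 8 rose and 9 fell in CD8+ cells. With plain totals, 3 rose and 11 fell in CD4+, and 1 rose and 16 fell in CD8+ cells. Gldc, the glycine decarboxylase, was nearly lost, at 12.4 ± 2.86 CPM in saline and 0.469 ± 0.380 at 50 mg/kg in CD4+ cells (log2 -4.59) and 19.1 ± 3.10 CPM in saline and 0.809 ± 0.532 at 50 mg/kg in CD8+ cells (-4.47). Mtr, methionine synthase, fell in CD4+ cells (-1.06) and Mthfd1, a folate enzyme, in CD8+ cells (-1.19). Tyms, which makes thymidylate, rose by 0.62 and 0.23, although it was -0.30 in CD8+ cells with plain totals. Mat2a, which makes S-adenosylmethionine, fell by 0.28 and 0.36 on the log2 scale. The purine enzyme Paics was called higher in CD4+ cells (0.14, and -0.30 with plain totals) and was -0.05 without a call in CD8+ cells.

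Known Atf4 targets were split in direction. Of 11 tested, 4 rose and 3 fell in each lineage (2 and 7 with plain totals). Eif4ebp1, a repressor of cap-dependent translation, rose by 1.08 and 1.69, and Xpot, a tRNA exporter, changed by -1.20 and -1.37. Ddit4, an inhibitor of mTORC1, was -0.15 and -0.30. Cebpg rose in CD4+ cells (0.26, and -0.18 with plain totals) and was 0.06 in CD8+ cells, and Cebpb was 0.11 and -0.02, these without a call. Of 20 tRNA synthetases, 8 rose and 5 fell in CD4+, and 8 rose and 9 fell in CD8+ cells, while with plain totals 1 rose and 15 fell, and 1 rose and 17 fell. Sars, which loads serine onto its tRNA, rose by 0.68 and 0.65, and with plain totals by 0.24 and 0.12. Iars (-0.97 and -1.25) and Vars (-0.57 and -0.56) fell, as did Eprs in CD4+ cells (-0.44), and Gars rose in CD8+ cells (0.31, and -0.22 with plain totals).

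Among 16 genes that control the integrated stress response, 7 rose and 8 fell in CD4+, and 7 rose and 7 fell in CD8+ cells (2 and 10 in each with plain totals). The eIF2 subunits Eif2s2 (0.35 and 0.33) and Eif2s1 (0.32 and 0.27) were higher, but with plain totals Eif2s2 was -0.09 and -0.20 and Eif2s1 -0.12 and -0.26. The reinitiation factors Denr (0.54 and 0.60) and, in CD8+ cells, Mcts1 (1.02) rose, and with plain totals Denr was 0.10 and 0.07 without a call and Mcts1 0.49. The eIF2 kinases Eif2ak3 (-0.92) and Eif2ak2 (-0.87) fell in CD4+ cells, and the phosphatase subunit Ppp1r15b (-1.01) in CD8+ cells.

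Partners and targets of Myc were mixed as well. Of 12 genes listed under the Myc network, 5 rose and 5 fell in each lineage (2 and 7 in CD4+, and 1 and 10 in CD8+ cells with plain totals). Max, the partner of Myc on DNA, was 0.26 and 0.14 and turned to -0.18 and -0.39 with plain totals. Mxd4, which competes with Myc for Max, rose by 0.62 and 0.81, and by 0.19 and 0.28 with plain totals. Mlx was 0.43 and 0.48, or -0.01 and -0.05 with plain totals. Mlxip, its partner, fell (-1.71 and -1.49), as did Mga in CD8+ cells (-1.14). Bcl7a, on the list but not itself a partner of Myc or Max, fell in CD4+ cells (-1.41). Of 28 nucleolar targets, 5 rose and 9 fell in CD4+, and 9 rose and 11 fell in CD8+ cells (1 and 22, and 1 and 23 with plain totals). Ncl fell (-0.47 and -0.51), as did Utp20 (-0.97 and -1.01). Nhp2 rose (0.67 and 0.95), and so did Npm3 (0.43 and 0.58, or -0.01 and 0.05 with plain totals). Npm1 was 0.01 without a call in CD4+ cells and called at 0.17 in CD8+ cells, but -0.43 and -0.36 with plain totals.

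Of 20 growth targets of Myc, 11 rose and 5 fell in each lineage, but 3 rose and 11 fell in CD4+, and 3 rose and 13 fell in CD8+ cells with plain totals. Nme1, a nucleotide kinase, rose by 1.32 and 1.57, and by 0.88 and 1.03 with plain totals. The glycolytic genes Ldha (0.65 and 0.41) and Pkm (0.39 and 0.17) and the nuclear transport gene Ran (0.51 and 0.57) were higher, and with plain totals Ldha in CD8+ cells was -0.12, Pkm -0.05 and -0.36 and Ran 0.08 and 0.04. Tfrc, the transferrin receptor, fell in CD8+ cells (-1.78), and Fasn, the fatty acid synthase, in CD4+ cells (-1.19). Of 14 polyamine genes other than Odc1, 9 rose and 2 fell in CD4+, and 10 rose and 2 fell in CD8+ cells (2 and 3, and 4 and 4 with plain totals). Oaz1, the antizyme that sends Odc1 protein to degradation, was at 840.0 ± 21.1 CPM in saline and 1641 ± 25.7 at 50 mg/kg in CD4+ cells (log2 0.97, or 0.53 with plain totals) and rose by 1.15 in CD8+ cells (0.62). Azin1, which shields Odc1 from antizyme, fell in CD4+ cells (-1.08), and so did Atp13a3, a polyamine transporter, in both lineages (-1.07 and -1.61). Smox, the spermine oxidase, rose in CD8+ cells (1.66), Eif5a by 0.51 (0.07 without a call with plain totals) and 0.66, and Sms was 0.19 and 0.20, or -0.25 and -0.33 with plain totals.

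Genes of mTORC1 and amino acid sensing, 25 in all, gave 9 rises and 6 falls in CD4+, and 12 and 8 in CD8+ cells (5 and 13, and 5 and 16 with plain totals). The Ragulator subunits Lamtor4 (1.11 and 1.33), Lamtor2 (1.01 and 1.21) and Lamtor5 (0.98 and 1.28), which anchor mTORC1 at the lysosome, rose with either scaling. Sesn3, a sestrin, fell in CD4+ cells (-1.30) and Depdc5, a subunit of the GATOR1 brake, in CD8+ cells (-1.30). Of 12 genes of glutamine use, 3 rose and 6 fell in CD4+, and 3 rose and 8 fell in CD8+ cells (0 and 9, and 0 and 10 with plain totals). Among them, Pfas (-1.18 and -1.54), Got2 (-0.24 and -0.52) and Glud1 (-0.12 and -0.30) fell. Gclm, of glutathione synthesis, was 0.44 and 0.45, and 0.00055 and -0.08 without a call with plain totals.

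**Figure D5:**
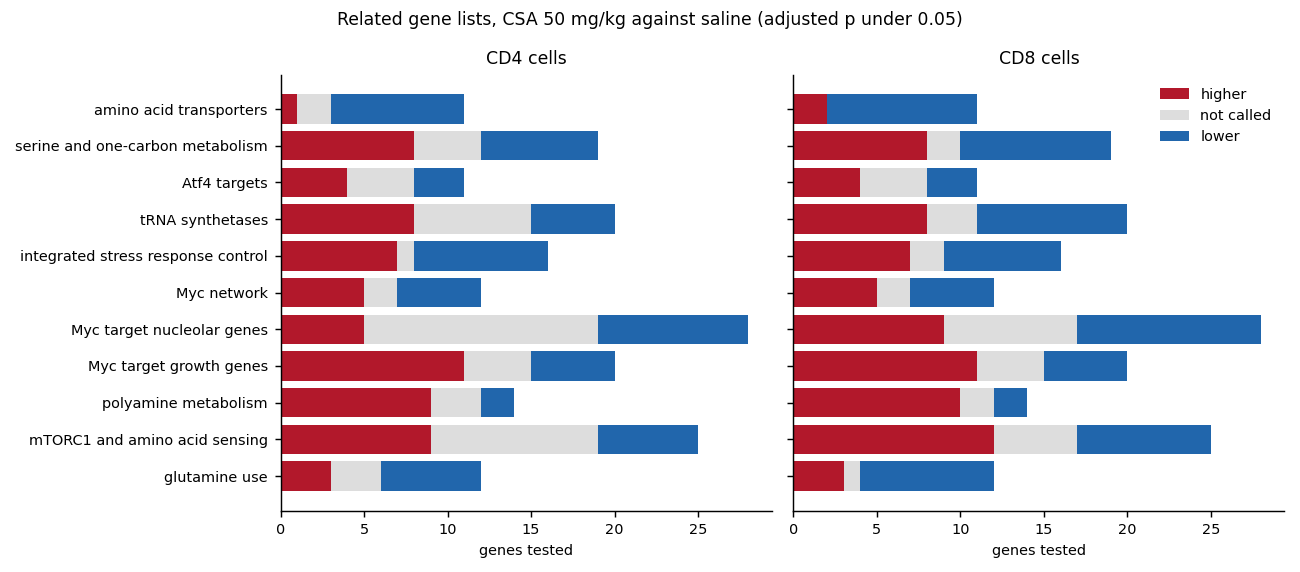
Number of tested genes of each of the 11 lists that passed the test as higher or lower, or did not pass, at 50 mg/kg against saline in CD4+ and CD8+ cells, with TMM scaling. The amino acid transporters, with 8 and 9 of 11 lower, and the polyamine genes, with 9 and 10 of 14 higher, are the most one-sided.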

How the data were processed

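Single-cell 5′ RNA libraries (10x Genomics) were made from spleens of 3 groups, each 1 capture of 3 hashtagged pools of 2 mice. Per the labels, the authors processed reads with Cell Ranger against mm10 (GRCm38) and used Seurat 3.0.0. They deposited raw UMI counts per gene and cell, and tables of other columns, namely treatment, pool, cluster number and the TEa mark, without the software's remaining settings in the sources used here. How doublets were treated was not given in the sources used here, and no caller was run. The deposited tables' cells were used without a further filter.

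UMI counts were summed per pool and lineage and tested with edgeR 4.0.16 and limma 3.58.1 in R 4.3.3 (filterByExpr, TMM scaling, quasi-likelihood test, all 9 pools of a lineage in 1 fit, Benjamini-Hochberg adjustment over all genes, threshold 0.05). Lineages were compared in 1 fit of both lineages with the pool as a block. TEa cells were left out. Replicates are pools within 1 capture, so that p-values measure the spread between pools only. The 3 pools of a group differed by more than sampling noise (chi-square per degree of freedom from 1.50 to 5.51), so none was counted as a duplicate. Clusters were tested where every pool had at least 50 cells.

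The CD8+ cluster numbers of the table differ from those of the study and were matched through Cd226, Mki67, Cenpa, Tcf7, Fcer1g, Ccr7 and Ifng, so that names of CD8+ clusters rest on that match. The members and lists were chosen with earlier results of these data known. Of each list, the 3 genes with the highest mean CPM and the 2 called genes with the largest change at 50 mg/kg were named, at a mean of at least 5 CPM. The 11 lists were amino acid transporters, serine and one-carbon metabolism, Atf4 targets, tRNA synthetases, integrated stress response control, Myc network, nucleolar and growth targets of Myc, polyamine metabolism, mTORC1 and amino acid sensing, and glutamine use. Promoters came from RefSeq. Alternatives were plain library totals, no filter, DESeq2 1.42.0, only the groups compared, TEa cells included, cells of 4000 to 8000 UMIs, cells outside the clusters taken as cycling, a hashtag block and each pool left out. Saline cluster shares, cells of at least 2000 UMIs and UMIs per 1000 cells were chosen after seeing the data.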

Additional observations from a re-analysis of the deposited data

Results flagged for a closer look

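Under CSA at 50 mg/kg, the changes of 2 serine synthesis enzymes differed between the lineages by the test of the difference itself. For Phgdh, the change in CD8+ cells less that in CD4+ cells was -0.30 ± 0.07 on the log2 scale (SE, edgeR, adjusted p = 0.00322, n = 3 pools per group), from a rise of 0.74 in CD4+ and 0.47 in CD8+ cells, with 3 of 3 pools above saline in both. For Psat1 the difference was -0.38 ± 0.09 (adjusted p = 0.00217), from 0.28 in CD4+ and -0.07 in CD8+ cells, where 3 of 3 CD4+ pools were above saline and the CD8+ pools overlapped it. In the saline pools both were already higher in CD8+ cells, by 0.55 and 0.33. Over all settings but those that left out a pool, the adjusted p ran from 1.85e-04 to 0.79 for Phgdh and from 3.39e-04 to 0.212 for Psat1. CD8+ C4, the cluster with the highest levels of both among CD8+ clusters, went from 21.9% of cells in saline to 0.567% at 50 mg/kg. In CD4+ cells the shares moved both ways. CD4+ C3, high for both genes, went from 4.35% to 17.7%, but C6, as high for both, went from 10.9% to 1.11%. CD4+ C1, with the lowest means of both, went from 9.01% to 25.6%. The part of these shares in the difference was not tested beyond the fit outside the clusters taken as cycling, where it was not called.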

How the results depend on the processing

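Relative to the median gene, the falls of Slc7a5 at both doses in both lineages kept their direction and call with plain totals, no filter, DESeq2, each pool left out and in cells of 4000 to 8000 UMIs, and those of Odc1 at 50 mg/kg did so as well. Scaling and the choice of cells decided the direction of most other members, as the values below show, and for these the cause was not tested. Depth per cell and the capture moved together with dose, which limits all of them. Asns had the fewest UMIs, at 39 to 106 a pool, and its CD8+ pools at 50 mg/kg ran from 8.23 to 14.7 CPM. Of the member values with DESeq2, 138 kept direction and call, 22 lost the call and 3 turned. Among those with plain totals, 81 kept both, 14 lost a call, 17 gained one and 51 turned, and in cells of at least 2000 UMIs 59 kept both and 1 lost its call.

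Fixing cluster shares to saline gives large weight to few cells at 50 mg/kg, with 6 to 7 per pool in CD8+ C4 and 7 to 14 in CD4+ C6. With cluster shares fixed to saline, the log2 change turned to -0.19 for Myc, -0.23 for Psat1, -0.038 for Phgdh and -0.15 for Shmt2 in CD4+ cells at 5 mg/kg, and 0.028 for Slc7a5, -0.21 for Asns and -0.015 for Psat1 in CD4+ cells at 50 mg/kg. It turned to 0.24 for Odc1 and 0.060 for Shmt2 between the doses in CD4+ cells, and -0.29 for Myc, -0.63 for Asns, -0.14 for Psat1 and -0.15 for Shmt2 in CD8+ cells at 5 mg/kg. It turned to -0.33 for Slc3a2, -0.52 for Asns and -0.46 for Shmt2 in CD8+ cells at 50 mg/kg, and -0.24 for Slc3a2 and 0.063 for Psat1 between the doses in CD8+ cells. There were then 384 genes called in place of 5467, 1 member higher in place of 3 and 0 members lower in place of 2 in CD4+ cells at 5 mg/kg, and 3534 genes called in place of 7454 and 0 members lower in place of 2 in CD4+ cells at 50 mg/kg. There were 2445 genes called in place of 4353 and 0 members lower in place of 1 between the doses in CD4+ cells, and 572 genes called in place of 6523, 0 members higher in place of 2 and 0 members lower in place of 1 in CD8+ cells at 5 mg/kg. There were 4084 genes called in place of 8024, 1 member higher in place of 4 and 4 members lower in place of 2 in CD8+ cells at 50 mg/kg, and 2762 genes called in place of 4443, 1 member higher in place of 4 and 0 members lower in place of 1 between the doses in CD8+ cells. With plain library totals, the log2 change turned to -0.36 for Myc, -0.25 for Slc3a2, -0.11 for Slc1a5, -0.079 for Atf4, -0.28 for Psat1, -0.064 for Phgdh and -0.31 for Shmt2 in CD4+ cells at 5 mg/kg, and -0.25 for Myc, -0.30 for Slc3a2, -0.27 for Slc1a5, -0.14 for Asns and -0.16 for Psat1 in CD4+ cells at 50 mg/kg. It turned to -0.044 for Slc7a5 and -0.044 for Slc3a2 between the doses in CD4+ cells, and -0.34 for Myc, -0.31 for Slc1a5, -0.16 for Atf4, -0.32 for Asns, -0.35 for Psat1, -0.040 for Phgdh and -0.37 for Shmt2 in CD8+ cells at 5 mg/kg. It turned to -0.027 for Myc, -0.50 for Slc3a2, -0.29 for Slc1a5, -0.40 for Asns, -0.058 for Phgdh and -0.52 for Shmt2 in CD8+ cells at 50 mg/kg, and -0.073 for Asns and -0.019 for Phgdh between the doses in CD8+ cells. It turned to -0.020 for Slc1a5 and -0.0020 for Shmt2 for that difference at 50 mg/kg, and -0.12 for Slc3a2, -0.26 for Slc1a5 and -0.029 for Psat1 within CD4+ C0. It turned to -0.11 for Psat1 within CD4+ C1, and -0.44 for Myc, -0.33 for Slc3a2, -0.30 for Slc1a5 and -0.20 for Phgdh within CD8+ C0. It turned to -0.073 for Myc, -0.17 for Slc3a2, -0.26 for Slc1a5, -0.064 for Atf4, -0.17 for Psat1 and -0.023 for Shmt2 within CD8+ C2, and -0.15 for Slc3a2, -0.047 for Slc1a5, -0.35 for Psat1 and -0.17 for Shmt2 within CD8+ C3. It turned to 0.019 for Slc1a5 and 0.014 for Psat1 in TEa against other CD4+ cells. There were then 0 members higher in place of 3 and 7 members lower in place of 2 in CD4+ cells at 5 mg/kg, and 1 member higher in place of 6 and 7 members lower in place of 2 in CD4+ cells at 50 mg/kg. There were 1 member higher in place of 3 and 2 members lower in place of 1 between the doses in CD4+ cells, and 0 members higher in place of 2 and 7 members lower in place of 1 in CD8+ cells at 5 mg/kg. There were 0 members higher in place of 4 and 6 members lower in place of 2 in CD8+ cells at 50 mg/kg, and 2 members higher in place of 4 and 2 members lower in place of 1 between the doses in CD8+ cells. The window of 4000 to 8000 UMIs takes a higher part of the saline cells than of the CSA cells, as depth per cell rose with dose. In cells of 4000 to 8000 UMIs, the log2 change turned to -0.035 for Myc, -0.64 for Psat1, -0.29 for Phgdh and -0.32 for Shmt2 in CD4+ cells at 5 mg/kg, and -0.50 for Asns and -0.63 for Psat1 in CD4+ cells at 50 mg/kg. It turned to 0.030 for Slc1a5 between the doses in CD4+ cells, and -0.28 for Asns, -0.34 for Psat1, -0.035 for Phgdh and -0.22 for Shmt2 in CD8+ cells at 5 mg/kg. It turned to -0.10 for Asns and -0.43 for Shmt2 in CD8+ cells at 50 mg/kg. There were then 0 members higher in place of 3 and 4 members lower in place of 2 in CD4+ cells at 5 mg/kg, and 3 members higher in place of 6 and 4 members lower in place of 2 in CD4+ cells at 50 mg/kg. There were 2220 genes called in place of 4353, 1 member higher in place of 3 and 0 members lower in place of 1 between the doses in CD4+ cells, and 1 member higher in place of 2 and 3 members lower in place of 1 in CD8+ cells at 5 mg/kg. There were 4 members lower in place of 2 in CD8+ cells at 50 mg/kg, and 2 members higher in place of 4 between the doses in CD8+ cells. Outside the clusters taken as cycling, the log2 change turned to 0.029 for Shmt2 in CD4+ cells at 50 mg/kg, and -0.049 for Psat1 between the doses in CD4+ cells. It turned to 0.049 for Slc3a2 and 0.11 for Odc1 in CD8+ cells at 5 mg/kg, and -0.20 for Asns between the doses in CD8+ cells. It turned to 0.34 for Slc7a5 for the CD8+ less the CD4+ change at 5 mg/kg, and -0.024 for Odc1 and 0.29 for Asns for that difference at 50 mg/kg. It turned to 0.018 for Myc and -0.17 for Slc7a5 between the lineages in saline. There were then 1 member lower in place of 2 in CD4+ cells at 5 mg/kg, and 4 members higher in place of 2 and 0 members lower in place of 1 in CD8+ cells at 5 mg/kg. There were 2836 genes called in place of 4443 and 1 member higher in place of 4 between the doses in CD8+ cells, and 76 genes called in place of 399 for the CD8+ less the CD4+ change at 5 mg/kg. There were 626 genes called in place of 2158 for that difference at 50 mg/kg, and 2322 genes called in place of 4483 between the lineages in saline. With no filter, the log2 change turned to -0.013 for Myc in CD4+ cells at 5 mg/kg. With DESeq2, the log2 change turned to 0.0023 for Shmt2 for the CD8+ less the CD4+ change at 5 mg/kg, and 0.061 for Slc1a5 and 0.038 for Psat1 in TEa against other CD4+ cells. There were then 1 member higher in place of 3 and 0 members lower in place of 1 between the doses in CD4+ cells, and 2 members higher in place of 4 between the doses in CD8+ cells. There were 722 genes called in place of 2158 for that difference at 50 mg/kg, and 2108 genes called in place of 4483 between the lineages in saline. There were 886 genes called in place of 1429 within CD4+ C1, and 845 genes called in place of 1544 within CD4+ C2. There were 1211 genes called in place of 1889 within CD8+ C1, and 107 genes called in place of 202 in TEa against other CD4+ cells. With the compared groups alone, there were then 0 members lower in place of 1 between the doses in CD4+ cells, and 2 members higher in place of 4 between the doses in CD8+ cells. With TEa cells included, the log2 change turned to -0.019 for Slc7a5 between the doses in CD4+ cells.

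With 1 pool left out at a time, log2 values of these uncalled members spanned 0, Myc from -0.045 to 0.070, Asns from -0.22 to 0.026 and Shmt2 from -0.057 to 0.12 in CD4+ cells at 5 mg/kg, and Slc7a5 from -0.021 to 0.084 and Slc3a2 from -0.0022 to 0.087 between the doses in CD4+ cells. The spans were Asns from -0.17 to 0.28 and Shmt2 from -0.048 to 0.055 in CD8+ cells at 50 mg/kg, and Asns from -0.27 to 0.18 between the doses in CD8+ cells. Others were Myc from -0.025 to 0.14, Slc7a5 from -0.16 to 0.0097, Atf4 from -0.16 to 0.14, Psat1 from -0.10 to 0.054, Phgdh from -0.039 to 0.11 and Shmt2 from -0.075 to 0.050 for the CD8+ less the CD4+ change at 5 mg/kg, and Slc3a2 from -0.0086 to 0.085 and Asns from -0.23 to 0.061 between the lineages in saline. The spans were Shmt2 from -0.32 to 0.17 within CD4+ C0, and Psat1 from -0.26 to 0.33, Phgdh from -0.0019 to 0.41 and Shmt2 from -0.18 to 0.16 within CD4+ C1. Others were Myc from -0.51 to 0.13 within CD4+ C2, and Myc from -0.12 to 0.37 and Shmt2 from -0.17 to 0.17 within CD8+ C0. The spans were Shmt2 from -0.094 to 0.060 within CD8+ C1, and Myc from -0.33 to 0.021 within CD8+ C3. Others were Slc1a5 from -0.066 to 0.071, Odc1 from -0.20 to 0.038, Psat1 from -0.15 to 0.093 and Phgdh from -0.096 to 0.12 in TEa against other CD4+ cells. Over the same fits, the count of members lower ran from 1 to 2 in CD4+ cells at 5 mg/kg, of members higher from 1 to 4 between the doses in CD4+ cells, of members lower from 0 to 1 between the doses in CD4+ cells. Also, the count of members higher ran from 1 to 3 in CD8+ cells at 5 mg/kg, of members lower from 1 to 2 in CD8+ cells at 5 mg/kg, of members higher from 2 to 4 between the doses in CD8+ cells. Also, the count of members lower ran from 0 to 2 between the doses in CD8+ cells, of genes called from 167 to 479 for the CD8+ less the CD4+ change at 5 mg/kg.

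Hashtag numbers are in the tables and not in the labels, and deviations of pools with the same number correlated by -0.067 to 0.015 in CD4+ and -0.062 to 0.167 in CD8+ cells, where those with different numbers gave -0.053 to 0.079 and -0.140 to 0.111, so that the numbers were not taken to pair pools. With the hashtag number as a replicate block, 2 members were higher in place of 4 between the doses in CD8+ cells, the other counts stayed within 1.5 times, and 57 member values kept direction and call while 3 lost the call.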

Other observations

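Of the 7 members' calls within clusters at 5 mg/kg, 4 were higher and 3 lower. In CD4+ C1, the effector cells with low Cd226, Slc7a5 was lower than in saline by -1.52 ± 0.44 on the log2 scale (SE, edgeR, adjusted p = 0.0359, n = 3 pools per group) and Odc1 by -0.74 ± 0.19 (adjusted p = 0.012). Myc was lower in CD4+ C2 at this dose (-0.82 ± 0.22, adjusted p = 0.0145), where at 50 mg/kg it was -0.17 ± 0.23 (adjusted p = 0.643), and the difference between those doses was not tested. Phgdh was higher in CD8+ C2 (0.57 ± 0.08, adjusted p = 7.10e-06) and C3 (0.49 ± 0.10, adjusted p = 2.63e-04), and Slc1a5 in CD4+ C0 (0.39 ± 0.12, adjusted p = 0.0219) and CD8+ C1 (0.45 ± 0.14, adjusted p = 0.0418). How these calls fared under other settings is not given here.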
